A study of Mus musculus with 8 samples.

Results

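Cytosines outside CG, in the contexts CHG and CHH (where H is A, C or T), were followed in the livers of 8 mice. Of 411630 cytosines with at least 20 reads in all 8 mice, 322871 lay outside CG on the 19 autosomes, of which 100621 were CHG and 222250 CHH. The rule for these members used coverage and context. The libraries were made by reduced representation bisulfite sequencing (RRBS), in which MspI cuts DNA at CCGG, short fragments are treated with bisulfite, and a cytosine that is still read as cytosine counts as methylated. The study bred reciprocal F1 mice from C57BL/6J (hereafter B6) and from DBA/2J (hereafter DBA) and profiled 1 female and 1 male of each of B6, DBA, BXD (B6 mother, DBA father) and DXB (DBA mother, B6 father). The livers were taken at 16 weeks of age after 16 hours of fasting. With 1 mouse for each strain and sex, the variation between mice of the same kind was not measured here, and every test below uses the 8 mice, or groups of them, as the replicates. Whole liver holds several cell types, and a level at a cytosine is an average over all of them.

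Methylation in mammals is found mainly at CG, where both strands carry it and it is copied when the DNA is replicated. Methylation outside CG is not copied in this way in mammals, and it is known from neurons, oocytes and embryonic stem cells, mostly at CA and, in neurons, most of all at CAC, where it is laid down by DNMT3A. Bisulfite sequencing cannot tell a methylated cytosine from one that failed to be converted, so low levels outside CG are usually read against DNA that is taken to be unmethylated. The mitochondrial genome served as that reference here.

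The library labelled B6 male stood apart from its label, and this precedes all results that use it. Among autosomal reads with a SNP, 83.9% of its cytosine calls had been sorted to B6, against 99.7% in the B6 female, 0.464% and 0.899% in the DBA female and male, and 52.3% to 53.4% in the F1 mice. Read lengths also differed, since the farthest covered cytosine was 100 bases from the cut for both parental females and the BXD male, 76 for both parental males, and 50 for the remaining 3 libraries. All members lay within the first 50 bases, which every library reached. Median coverage of the members was 50 reads in both DBA libraries and 81 to 211 in the others. At 20 reads a single methylated read is a level of 5%, so the precision of single cytosines was limited, and intervals given below hold counting error only because copies made by PCR could not be told from separate molecules.

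Of the 17 members at 20% or more in all 8 mice, 11 were CAC and 1 was CAT. These contexts make up 8.68% and 6.27% of all members. Sequences around 12 of the 17 are shown here before the values. The sequences are from the mm9 genome, 5′ to 3′ on the strand of the cytosine, with the methylated cytosine and the 2 bases after it in capitals. They are the best read of the cytosines named by the rule given further on. The first 7, all CAC or CAT, have A or C before the capitals and C or T after them. Of all 28014 CAC members, 7778 had A and 7391 had C before the triplet. After it 7102 had C and 6503 had T. The last 5 come from 3 places where the CG next to the cytosine behaved differently, as described further on.
Lims1 (chr10:57854720-57854742, minus strand): caccaaactcCACcactattact
Rab11fip4 (chr11:79500680-79500702, minus strand): ccaggggcccCACcacgcccagc
Cdk6 (chr5:3518994-3519016, plus strand): tgttgtatcaCACcacaaagcga
Ctbp1 (chr5:33615736-33615758, plus strand): ccccacactaCACcacaacgctg
Sh2d3c (chr2:32581949-32581971, minus strand): agtgctaccaCACcaacttatgt
No gene within 10 kb (chr15:77190403-77190425, minus strand): gtaactgttaCACtttgtgtcct
Zfp518b (chr5:39074719-39074741, plus strand): gggccggataCATcagatgcccc
First of a pair, no gene within 10 kb (chr5:142843750-142843772, plus strand): cccggctgagCTTgcacgccgtt
Second of the pair (chr5:142843758-142843780, plus strand): agcttgcacgCCGttttctgacc
First of a pair by 9330154J02Rik (chr9:85736391-85736413, minus strand): agggccagggCTGcaggagagat
Second of the pair (chr9:85736396-85736418, minus strand): gggggagggcCAGggctgcagga
D16H22S680E (chr16:18348149-18348171, plus strand): tgctagggggCCGacctgggcta

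To determine how much methylation was found outside CG, mean levels were compared between contexts and genomes. The mean level of the members was 0.616% ± 0.212 (SD, n = 8 mice), against 42.3% ± 0.649 at the 82065 autosomal CGs covered in the same way. It was lowest in the library labelled B6 male (0.270%), had a median of 0.614% over the mice, and was highest in the DXB female (0.909%). The order of the mice was not that of the CGs, whose means ran only from 41.6% to 43.3%. No methylated read was seen at 49.8% to 80.7% of the members, depending on the mouse. At the other end, between 60 members (B6 female) and 765 (DBA male) reached 20%.

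The mean level of CHG was below that of CHH by a small margin. The mean was 0.602% for CHG and 0.623% for CHH, a difference of -0.0212 percentage points ± 0.0233 (SD, n = 8). The CHG mean was the lower one in 7 of 8 mice (two-sided exact sign-flip test over the mice, p = 0.0234), the exception being the library labelled B6 male. This small difference was not past the threshold when members at 20% or more in any mouse were left out (-0.0103 points, exact p = 0.141) or when only reads without a SNP were used (-0.0171 points, exact p = 0.0547). With reads summed over cytosines instead of averaging their levels it was -0.138 points, and -0.0245 points when the 1% most covered members were left out of that sum (exact p = 0.00781 for both). CHH holds CAC, the most methylated context (1.09%), and CAT (0.734%), while its other contexts were at 0.453% to 0.644%. The CHG contexts CAG, CTG and CCG were at 0.695%, 0.528% and 0.494%. By context the order varied. CCG was above CCA (0.489%), CCC (0.453%) and CCT (0.483%). CAG was above CAA (0.620%) and below CAC and CAT. CTG was above CTA (0.526%) and below CTC (0.644%) and CTT (0.544%). The lower mean of CHG thus does not hold for each context. CHG and CHH were not compared as groups without CAC, so a lower CHG level apart from CAC is not shown.

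Mean autosomal levels of CHH and of CHG exceeded those of the mitochondrial genome in every mouse. The mitochondrial cytosines covered by RRBS lay in a single stretch of the gene mt-Co1 with 2 MspI sites, and only 19 of them outside CG had 20 reads in all mice, so each mouse was compared with its own covered ones (19 to 48). These had at least 2479 reads each, and their CHH level was lowest for the DBA male, at 0.145%, and highest for the DXB female, at 0.463%. Autosomal CHH exceeded it by 0.323 points ± 0.206 (n = 8, higher in 8 of 8, exact sign-flip p = 0.00781, the smallest that 8 mice allow). The excess was smallest in the library labelled B6 male (0.0640 points) and greatest in the DBA male (0.732 points). In the library labelled B6 male it did not hold for every class of members. There autosomal CA was at 0.427% against 0.127% for mitochondrial CA, and CT at 0.206% against 0.203%. Autosomal CC, at 0.144%, was below mitochondrial CC at 0.243%. Its members beside a CG at 20% or less, at 0.120%, were also below its mitochondrial CHH level of 0.204%. For CHG the excess was 0.296 points ± 0.175, again in 8 of 8 mice (exact p = 0.00781). The mitochondrial CHG level rested on only 3 to 9 cytosines per mouse. With reads summed over cytosines instead of averaging their levels the CHH excess was 0.523 points, and 0.295 points when the 1% most covered members were left out of that sum. No mitochondrial cytosine outside CG exceeded 0.996% in any mouse.

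Whether mice with more mitochondrial signal also had more on the autosomes was not settled by 8 mice. Across the mice, mitochondrial and autosomal CHH levels had a Pearson correlation of 0.319 (exact permutation p = 0.442) and a Spearman correlation of 0.429 (exact permutation p = 0.299), with 3 such relations computed and adjusted p of 0.442 and 0.449. Without the DBA male and the DXB female, the mice with the lowest and highest mitochondrial level, Pearson's r was 0.911 (exact permutation p = 0.0111), so that the pooled value rests on these mice. Without the DBA male alone r was 0.951, without the DXB female alone it was -0.0980, and without the library labelled B6 male 0.0724. With summed reads over all mice r was 0.740 (exact permutation p = 0.0350), and with at least 10 and 50 reads 0.0831 and 0.518. Read-length groups held at most 3 mice each, too few for a value within them.

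**Figure D1:**
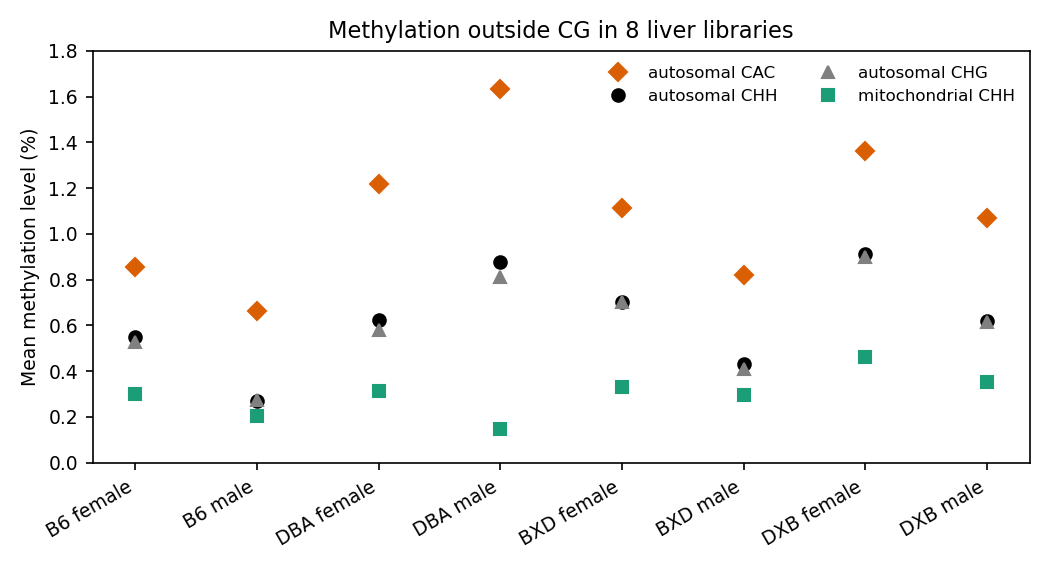
Mean methylation level (%, vertical axis) of autosomal CAC, CHH and CHG cytosines and of mitochondrial CHH in each of the 8 mice (horizontal axis), 1 point per mouse and context with no error bar. Autosomal CAC lies above the other points in all 8 mice, and mitochondrial CHH below them.

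Levels differed more with the base after the cytosine than between CHG and CHH. CA was at 0.778%, CT at 0.559% and CC at 0.478% (means over 8 mice). CA exceeded CC by 0.300 points ± 0.0920 and CT by 0.219 points ± 0.0740, and CT exceeded CC by 0.0807 points ± 0.0222. Each of these differences was present in 8 of 8 mice, and so at each read length (exact sign-flip test, p = 0.00781 each, also 0.00781 after adjustment for the 3 pairs). In the mitochondrial stretch, CA and CC differed by -0.0108 points ± 0.0600, with CA higher in 4 of 8 mice (exact p = 0.633). The autosomal gap exceeded the mitochondrial gap in 8 of 8 mice, by 0.310 points ± 0.116 (exact p = 0.00781), although the mitochondrial side rests on few cytosines (6 to 14 CA and 5 to 11 CC per mouse).

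Within CA the levels differed by the third base, and CAC was the most methylated of the 12 contexts in every mouse. This context was singled out after the values had been seen. CAC made up 28014 members (8.68%) and was at 1.09% ± 0.315, from 0.661% in the library labelled B6 male to 1.63% in the DBA male. CAT followed at 0.734%, CAG at 0.695%, CTC at 0.644% and CAA at 0.620%, and the lowest context was CCC at 0.453%. CAC exceeded the other CA cytosines by 0.408 points ± 0.128 and CCC by 0.638 points ± 0.188, both in 8 of 8 mice (exact p = 0.00781 each). Both comparisons were added after the values had been seen, CCC being the lowest context, so these p are a description. The 2 mitochondrial CAC cytosines stood at 0.0812% to 0.360% per mouse, below the mean of mitochondrial CA in 8 of 8 mice.

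The weighting of reads changed the size of these differences and the direction of one. With summed reads CA exceeded CC by 0.617 points and CT by 0.540 points, while CAC no longer exceeded the other CA (a difference of -0.0987 points, exact p = 0.523). In that sum 13 members of chr2:98506425-98506658 held 14.1% of all reads and 35.9% of the methylated ones, at levels from 0.515% to 6.68%, and 8 of the 13 were CA other than CAC. Without the 1% most covered members the difference from summed reads was 0.406 points (exact p = 0.00781), close to the value from averaged levels. It was 0.268 points without members at 20% or more in any mouse (exact p = 0.00781).

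**Figure D2:**
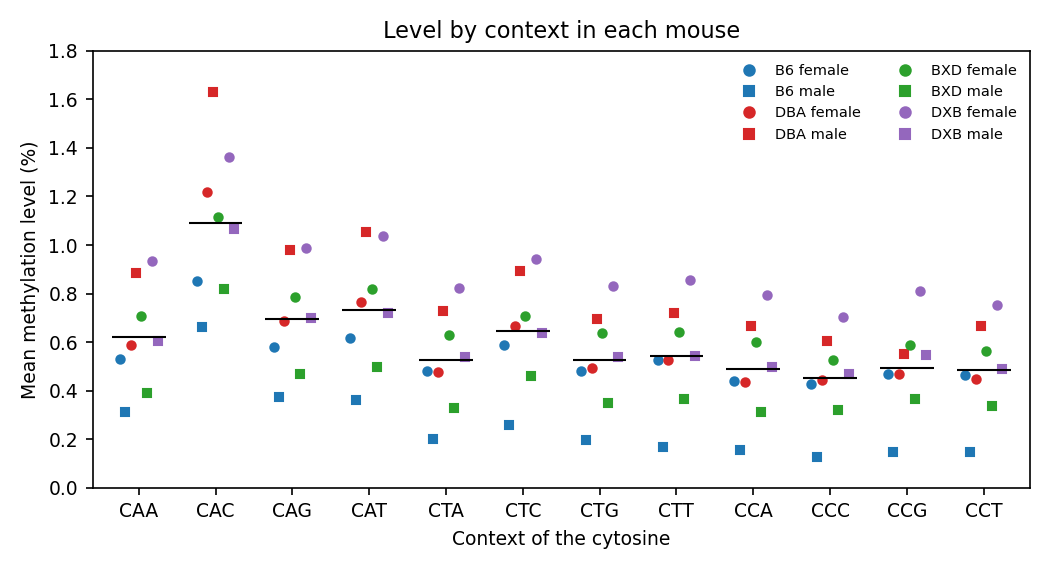
Mean methylation level (%, vertical axis) for the 12 contexts outside CG (horizontal axis), with 1 point per mouse coloured by strain and shaped by sex, and a bar at the mean of 8 mice. CAC has the highest mean, 1.09%, and CCC the lowest, 0.453%.

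Levels at CAC also differed with the bases around it, which is given as a description of motifs found after the values had been seen. A C after the triplet gave 1.64% (CACC, 7102 members), a T 1.16%, an A 0.856% and a G 0.588%. Preceded by A, CACC was at 2.12% (ACACC, 1781 members), and with T before that at 4.55% ± 1.01 (TACACC, 205 members). TACACC ranked first in each of the 8 mice among the 64 hexamers NNCACN, whose median level was 0.926%. Its mean was 3.38% in the B6 female and 3.49% in the library labelled B6 male, 4.23% to 4.54% in the F1 mice, and 5.75% and 6.28% in the DBA female and male. Not every TACACC was methylated, since 20.5% to 26.8% of the 205 reached 5% in a given mouse, against 0.0394% to 2.97% of CCC members. The next hexamers by mean level were TGCACC (2.82%), CACACC (2.81%) and TACACT (2.78%). Without members at 20% or more in any mouse TACACC was at 1.81%, against 1.69%, 1.76% and 1.77% for these. The lead of TACACC was thus small without such members.

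The levels of CAC cytosines recurred from mouse to mouse. Across the 28014 CAC members, Pearson's r between the levels of a pair of mice had a median of 0.662 over the 28 pairs (range 0.486 to 0.849). For the 205 TACACC members the median was 0.898, whereas for the 25382 CCC members it was 0.144. For all 294857 members other than CAC the median was 0.370 (range 0.199 to 0.651). These correlations are across cytosines, which share libraries and neighbouring fragments and are no independent replicates, and the CCC levels spanned a far narrower range.

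Next, members were related to the methylation of the nearest covered CG, which lay at a median distance of 12 bases (range 1 to 49). Members beside a CG at 80% or more in the same mouse were at 0.749%, and those beside a CG at 20% or less at 0.419%. The difference was 0.330 points ± 0.178, present in 8 of 8 mice (exact p = 0.00781), and with summed reads 0.635 points, or 0.312 lacking the 1% most covered members. It was greatest in the DBA male (0.753 points) and ran from 0.205 to 0.362 points in the others.

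The contrast was larger at CAC than at the other contexts. CAC had been singled out after the values had been seen, so the exact p given here are a description. CAC cytosines were at 1.47% beside methylated CGs and at 0.471% beside unmethylated ones, a difference of 1.0 points ± 0.356. For all other members the levels were 0.675% and 0.415%, a difference of 0.261 points ± 0.161. The contrast at CAC exceeded that at the others by 0.742 points ± 0.215 in 8 of 8 mice (exact p = 0.00781). This was 0.312 points with summed reads (exact p = 0.0312), 0.757 with summed reads lacking the 1% most covered members, and 0.483 without members at 20% or more in any mouse (exact p = 0.00781 for both). Beside unmethylated CGs the CAC level was 0.178% to 0.816% per mouse, against 0.115% to 0.727% for the others.

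The sequences around CAC showed the contrast to different degrees. TACACC was at 5.81% ± 1.43 beside methylated CGs (112 to 119 cytosines per mouse) and at 0.790% ± 0.40 beside unmethylated ones (38 to 48 per mouse). ACACC was at 2.96% and 0.502%, and CACC at 2.5% and 0.474%. CACT was at 1.58% and 0.488%, CACA at 1.01% and 0.462% and CACG, with the least contrast of the 4 bases after CAC, at 0.754% and 0.459%. CCC stood at 0.531% and 0.374%. All these differences were positive in 8 of 8 mice (exact p = 0.00781 each, the same after adjustment over 11 sequences). The sequences were also chosen after the values had been seen. By distance to the CG, CAC beside methylated CGs was at 1.46% within 5 bases, 1.61% from 6 to 10, 1.48% from 11 to 20 and 1.41% from 21 to 50 bases. Over all members the contrast narrowed with distance, from 0.873% against 0.420% within 5 bases to 0.692% against 0.431% from 21 to 50 bases. It was 0.778% against 0.409% from 6 to 10 and 0.737% against 0.420% from 11 to 20 bases. These distances were not examined without base 4 of the read, where levels were higher in all 8 mice, as described further on.

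**Figure D3:**
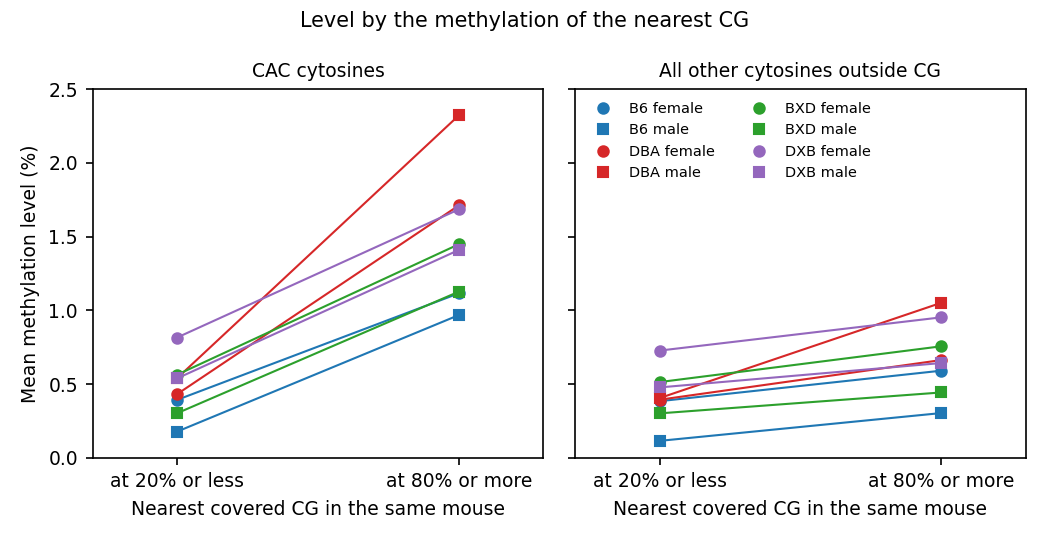
Mean methylation level (%, vertical axis) of CAC cytosines (left) and of all other cytosines outside CG (right) whose nearest covered CG was at 20% or less or at 80% or more in the same mouse (horizontal axis), with 1 line per mouse. All 8 lines rise in both panels, by 1.0 points on average at CAC and by 0.261 points at the others.

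Levels differed between gene parts as well. Members in promoters (1000 bases before to 500 after a transcription start) were at 0.485%, below intergenic members at 0.621%, by -0.136 points ± 0.0803 (lower in 8 of 8 mice). Exons at 0.708% and introns at 0.685% were above intergenic members by 0.0874 and 0.0635 points, in 8 of 8 mice (exact p = 0.00781 for the 3 comparisons, unchanged by adjustment). The comparisons of exons and introns were added after the values had been seen, so their p are a description. With summed reads the promoter difference was -0.545 points and those of exons and introns turned to -0.340 and -0.366 points, and without the 1% most covered members the 3 were at -0.134, 0.0804 and 0.0606 points. With at least 50 reads the exon difference was 0.0430 points (exact p = 0.0156). Only 10.3% of promoter members lay beside a CG at 80% or more, against 54.2% to 58.7% in the other parts, and the share of this in the differences was not tested.

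At CAC the same order was wider. CAC was at 1.51% ± 0.455 in exons, 1.36% ± 0.372 in introns, 0.973% ± 0.295 in intergenic DNA and 0.696% ± 0.230 in promoters. All other contexts together spanned 0.467% in promoters to 0.633% in exons. CAC at 10% or more in all 8 mice numbered 17 in exons (0.598% of the CAC there), 38 in introns (0.417%), 19 in intergenic DNA (0.194%) and 4 in promoters (0.0636%).

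To identify cytosines methylated in all mice, members were counted by their lowest level. Altogether 17 of the 322871 members, or 0.00527%, were at 20% or more in all 8 mice, comprising 4 CHG (0.00398%) and 13 CHH (0.00585%). For autosomal CGs the same count took in 46.8%. CAC supplied 11 of the 17, which is 0.0393% of CAC against 0.00203% of all other members. At lower levels the share of CAC was similar. At 10% in all mice, 78 of 103 members (0.0319% of all) were CAC (0.278% of CAC, 0.00848% of the rest), and at 5% they were 222 of 322, the 322 being 0.0997% of all (0.792% of CAC, 0.0339% of the rest).

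Members of these wider lists often had methylated CGs beside them. Among the 222 CAC at 5% or more, 206 (92.8%) had a nearest CG at 50% or more in every mouse, against 58.6% of all CAC members, and none had one at 20% or less in every mouse. Of the 100 others at 5% or more, 81 had such a CG, against 55.5% of all members other than CAC. The 222 were spread over all 19 autosomes, with 119 on the plus strand.

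The count of 17 depended on the mice used. Cytosines at 20% in 7 mice numbered 18 to 20 when any mouse but the B6 female was set aside. With the B6 female set aside they numbered 39, and their median in the B6 female was 18.4%. The lowest members inside the threshold had 21.9% and 22.1% in their lowest mouse, and the nearest ones outside had 19.7% and 19.1%. The count rests on coverage and level, being 45 with at least 10 reads, 6 with at least 50 reads, and 2 at a level of 50%. With at least 50 reads only 16.7% of the 6 were CAC.

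**Figure D4:**
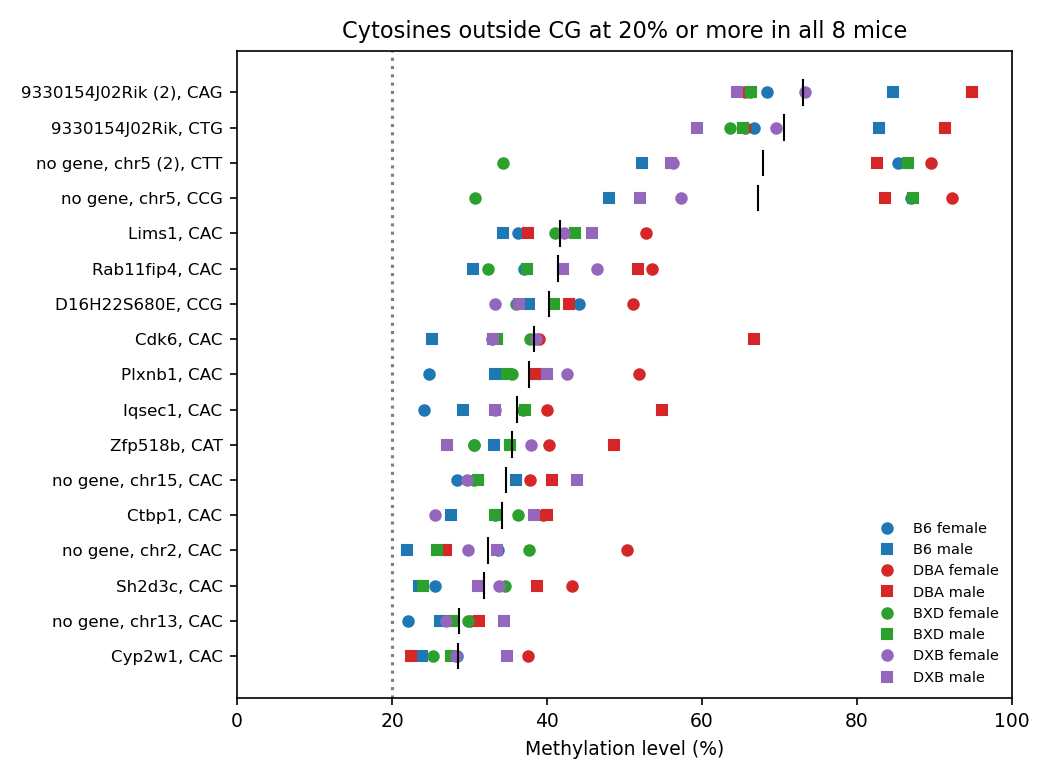
Methylation level (%, horizontal axis) of the 17 cytosines outside CG at 20% or more in all 8 mice, 1 row each, named by the gene that holds it and its context and ordered by mean (black bar), with 1 point per mouse and a dotted line at 20%. Rows labelled CAC have means from 28.5% to 41.7%, and the 4 rows of the pairs on chromosomes 5 and 9 lie higher, at 67.3% to 73.0%.

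The 11 CAC cytosines and the CAT lay beside methylated CGs and among cytosines outside CG with low levels. Means over mice ran from 28.5% to 41.7% for the CAC, and their same-strand neighbours outside CG within 30 bases averaged 0.404% to 2.28%. Single neighbours were higher near 3 of them, all of these CAC, at 14.2% on average 9 bases from the one at chr13:53091566, at 8.57% for the one in Iqsec1 and at 6.54% for the one in Lims1. The nearest CG was at 69.4% to 98.4% on average. Of the 11, 9 were followed by C (CACC) and 2 by T, 5 were ACACC and 2 were TACACC, while of all 28014 CAC members 7102 were CACC, 6503 were followed by T, 1781 were ACACC and 205 were TACACC.

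The most methylated of them lay in an intron of Lims1, an adaptor of focal adhesions, at chr10:57854732. Its level ran from 34.3% (60 of 175 reads, exact 95% interval 27.3% to 41.8%) in the library labelled B6 male, over a median of 41.6%, to 52.8% (38 of 72 reads, 40.7% to 64.7%) in the DBA female. The CG 49 bases away was at 95.8%.

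Next came a CAC in an intron of Rab11fip4, an effector of the endosomal GTPase Rab11, at chr11:79500692. It had a lowest level of 30.5% in the library labelled B6 male, a median of 39.8% and a highest level of 53.6% in the DBA female. Its 18 neighbours averaged 0.507%, while the CG 5 bases away was at 98.4%. A methylated CG and almost unmethylated cytosines thus stood within a few bases of it on the same strand.

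In Cdk6, which encodes a kinase of the G1 phase of the cell cycle, the intronic CAC at chr5:3519004 was at 25.2% in the library labelled B6 male, 35.6% in the median and 66.7% in the DBA male. The last value rested on 14 of 21 reads (exact 95% interval 43.0% to 85.4%). The intronic CAC of Ctbp1, a transcriptional corepressor, at chr5:33615746 was one of the 2 TACACC. It lay between 25.6% (DXB female) and 40% (DBA male) with a median of 34.8%. Its CG 8 bases away was the least methylated of the group, at 69.4%.

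Exonic CAC were found in Plxnb1, a receptor for semaphorins (chr9:109014234, 24.7% to 51.9%, median 37.1%), and in Iqsec1, an exchange factor for ARF GTPases (chr6:90622111, 24.1% to 54.8%, median 35.1%). Both were lowest in the B6 female and highest in a DBA parent. Sh2d3c, an adaptor with an SH2 domain, held an intronic CAC at chr2:32581961 (23.5% to 43.3%, median 32.4%). The CAC at chr15:77190415 had no gene within 10 kb and ran from 28.4% to 43.8%, with a median of 33.6%.

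Zfp518b, which encodes a zinc finger protein, held the CAT in an intron at chr5:39074729. Its level was 27.1% in the DXB male, 34.2% in the median and 48.6% in the DBA male, beside a CG 6 bases away at 98.96%. Outside the naming rule, and named after their values were seen, were the intronic CAC of the cytochrome P450 gene Cyp2w1 (chr5:139830979, 22.5% to 37.5%), the TACACC at chr13:53091566 (22.1% to 34.4%) and the CAC at chr2:34004861 (21.9% to 50.3%). The last 2 had no gene within 10 kb. No window of 100 kb held more than 1 of these 12 cytosines.

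The other 5 of the 17 looked different, being in CCG, CTG, CAG or CTT and close to a CG without methylation. At chr5:142843760 (CTT) and chr5:142843768 (CCG), with no gene within 10 kb, levels were lowest in the BXD female (34.3% and 30.7%) and highest in the DBA female (89.5% and 92.3%). The CGs at chr5:142843752 and chr5:142843769 moved with them, from 39.1% and 31.8% in the BXD female to 98.6% and 90.9% in the DBA female. Yet the CG at chr5:142843766, between the pair, stayed at 0% to 1.1%, and the CAC at chr5:142843764 at 0% to 1.1% too. Coverage was 153 to 943 reads. In the libraries with reads of 100 bases the pair was at 85.4% to 89.5% (CTT) and 87.0% to 92.3% (CCG). In those with reads of 50 bases it was at 34.3% to 56.3% and 30.7% to 57.3%, without overlap. With reads of 76 bases, the library labelled B6 male was at 52.3% and 48.1%, and the DBA male at 82.6% and 83.6%. Read length and mouse cannot be told apart at this pair.

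At chr9:85736403 (CTG) and chr9:85736408 (CAG), in a promoter where the genes 9330154J02Rik and Tpbg overlap, levels ran from 59.4% and 64.6% in the DXB male to 91.4% and 94.9% in the DBA male. The library labelled B6 male was next, at 82.8% and 84.7%, and the other 6 mice lay between 59.4% and 73.3%. The 2 libraries with reads of 76 bases were therefore above the other 6 without overlap, and read length and mouse cannot be told apart here. The nearest CGs, at chr9:85736390 and chr9:85736419, averaged 0.915% and 0.147%.

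The last was the CCG at chr16:18348159 in the promoter and an annotated UTR of D16H22S680E. It was at 33.3% in the DXB female, 39.2% in the median and 51.1% in the DBA female. The CG on the very next base was at 0.293% on average, and 11 neighbours outside CG averaged 0.404%. Whether the 3 places have near copies elsewhere in the genome, or differ from the reference in these mice, was not tested.

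With regard to strain, mean CAC levels of both DBA parents were above those of both B6 libraries, although the DXB female (1.36%) lay above the DBA female (1.22%). Of the 17 cytosines, 15 had their highest level in a DBA parent, against 27.6% of all members with a single highest mouse and 33.0% of such CAC. At the 11 CAC the DBA female exceeded the B6 female at 11 and the DBA male exceeded the library labelled B6 male at 10. Of all 28014 CAC, the DBA female was above the B6 female at 29.0% and below at 33.7%, and the DBA male was above the library labelled B6 male at 33.6% and below at 18.0%, the rest being equal. Among the 222 CAC at 5% or more in all 8 mice, which include the 11, each DBA parent was above its B6 counterpart at 195. The 17, 11 and 222 were picked by levels in these same mice and the DBA libraries had the lowest coverage of the members (a median of 50 reads each, against 81 to 211 in the other mice), so these counts are a description. The median level of the 11 was 28.4% in the B6 female, 27.6% in the library labelled B6 male, 33.3% to 35.5% in the F1 mice, 40% for the DBA female and 38.7% for her male counterpart. The F1 mice thus lay between the parents in these medians.

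Over all members the gap between CAC and CCC, which sets each mouse against its own level at CCC, was also higher in both DBA parents than in both B6 libraries. It was 0.426 and 0.534 points in the B6 female and the library labelled B6 male, 0.50 to 0.658 in the F1 mice, and 0.773 and 1.02 in the DBA female and male. Within reads of 100 bases the DBA female exceeded the B6 female by 0.347 points, and within reads of 76 bases the DBA male exceeded the library labelled B6 male by 0.490 points. The difference of the parents was 0.419 points, but 0.195 with summed reads and 0.248 without members at 20% or more in any mouse. As a description, with no test because the order had been seen first, the slope over 0, 1 or 2 DBA genomes per mouse was 0.209 points for the gap and 0.333 points for the CAC level. The library labelled B6 male, part of whose reads had been sorted to DBA, counted as 0 here, and without it the slopes were 0.251 and 0.295 points. Without the DBA male they were 0.138 and 0.250 points, with summed reads 0.0974 and 0.178 points, and without members at 20% or more in any mouse 0.124 and 0.243 points. The part of the lower coverage of the DBA libraries in this order was not tested. The gap and the slopes include the 20 and 10 CAC members of the sets of 65 and 22 described below. Those sets had median levels of 88.8% to 92.0% in the DBA parents. The values without members at 20% or more in any mouse leave these CAC out.

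Members at 20% in some mice but not all showed where mice differed. In total 938 members reached 20% in at least 1 mouse, while 99.7% of all 322871 members did so in none. Of the 938, 531 (0.164% of members) did so in exactly 1 mouse, and 390 of these in the DBA male. The 390, of which 72 lay at base 4 of the read, had a median of 27.5 reads in the DBA male and a median level of 23.3% there.

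A set of 65 members was at 20% or more in the DBA parents and the 4 F1 mice and below it in both B6 libraries. Median levels were 90% and 88.8% in the DBA female and male, 41.4% to 44.0% in the F1 mice, and 0.463% and 0% in the B6 female and the library labelled B6 male. In 41 of the 65 both DBA parents were at 80% or more, and in 64 no F1 mouse was above 70%. By context 20 were CAC and 15 CAT, which make up 8.68% and 6.27% of all members. A further 22 had the same pattern but also reached 20% in the library labelled B6 male, with a median of 53.4% there and 1.0% in the B6 female. Contexts here are those of the mm9 genome, which is that of B6, and the DBA sequence at these cytosines was not examined.

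A set of 31 members reached 20% in both DBA parents alone, and 26 of them were CAC (8.68% of all members). Here the median levels were 23.8% and 25% in the DBA parents, 10.4% and 9.89% in the B6 libraries and 11.5% to 13.7% in the F1 mice. These members were chosen by the levels in the same mice, so the values describe them and test nothing.

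Levels also differed with the base of the read. The level at base 4 from the cut, the first base read outside the CCGG site, was above the median of the other bases in every mouse, from 0.907% in the BXD male to 4.26% and 6.20% in the B6 and DBA males, the medians being 0.230% to 0.893%. Of 137 members at 20% or more in these 2 libraries and no other, 130 lay at base 4, which held 2247 of all 322871 members and 2003 of the 321933 that reached 20% in no mouse. In the DXB male base 34 stood at 2.14%, and in the B6 female base 49 at 0.832%. None of the 17 lay at base 4, and leaving that base out changed no direction and no call of the comparisons between contexts, gene parts and CG neighbours.

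**Figure D5:**
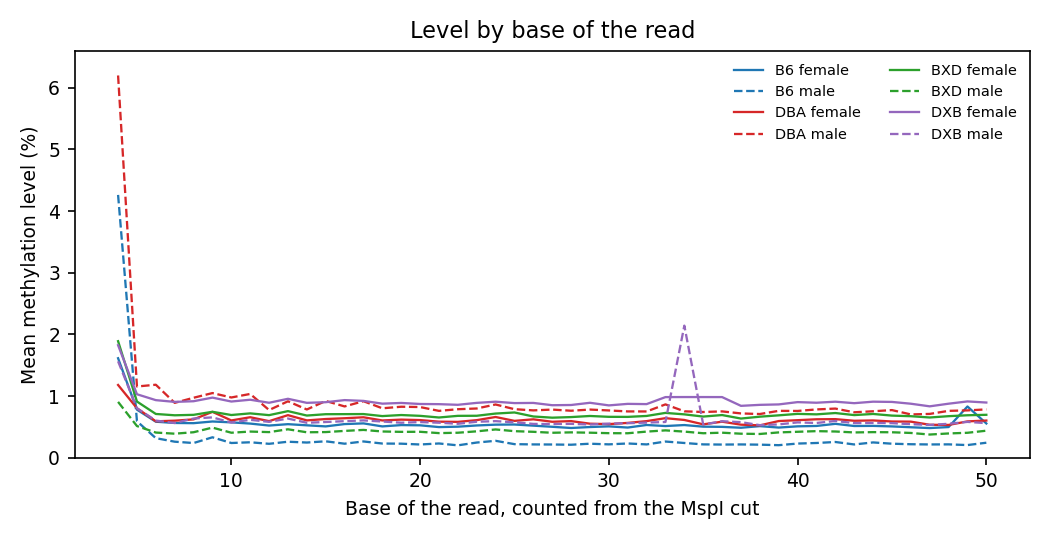
Mean methylation level (%, vertical axis) of the members by base of the read counted from the MspI cut (horizontal axis), with 1 line per mouse. From base 5 onwards all lines stay at or below 1.19% except at base 34 in the DXB male (2.14%), and base 4 lies above the median of the other bases in all 8 mice, up to 6.20% in the DBA male.

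Sex and generation were compared last. Females averaged 0.691% and males 0.542%, a difference of 0.149 points with overlapping ranges (exact permutation test of 4 against 4, p = 0.371, adjusted p = 0.571). Paired by strain, the female was higher in 3 of 4 (exact sign-flip p = 0.25, smallest possible 0.125). The difference was 0.0581 points without the library labelled B6 male, 0.0760 without the DXB female, 0.254 without the DBA male and 0.0964 with at least 10 reads, none past the threshold. Within reads of 100 bases the females were at 0.542% and 0.610% and the male at 0.423%, and within reads of 50 bases the females were at 0.703% and 0.909% and the male at 0.619%, while reads of 76 bases came from males alone. F1 mice averaged 0.664% and parents 0.569%, a difference of 0.0941 points (exact permutation p = 0.571, adjusted p = 0.571). Within reads of 100 bases the order was the opposite, with the F1 mouse at 0.423% below both parents, and the other read lengths held parents or F1 mice alone. Without the library labelled B6 male the difference was -0.00577 points, without the DXB female 0.0122, without the BXD male 0.174 and without the DBA male 0.190. It was 0.278 points with summed reads, 0.156 lacking the 1% most covered members and 0.0417 with at least 10 reads, none past the threshold.

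Single members that separated the sexes were rare. One had all females above all males with means over 20 points apart, and 1 had the opposite order (0.00031% of members each). For generation 5 had all parents above all F1 mice (0.00155%), and 0 the opposite. These counts carry no p, and none of the comparisons of context, CG neighbour or gene part differed between females and males or between F1 mice and parents at an unadjusted exact p below 0.05 (13 contrasts, each tested by permutation of 4 against 4).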

How the data were processed

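RRBS was made from liver DNA of 8 mice. The authors aligned reads to mm9 with BS Seeker, kept unique alignments, sorted reads with a SNP to B6 or DBA, and deposited raw counts of methylated and unmethylated reads per cytosine and class. The deposited fraction (0 to 1) equalled these counts and was only checked. No version of the aligner and no handling of duplicates was found in the sources used here. The authors' tables of their own comparisons hold mean levels, p-values and difference scores, and were not used.

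Counts were summed over classes. Levels in percent were averaged over cytosines in each mouse, so each cytosine weighs the same. Strand, triplet and sequence came from NCBIM37 (mm9) and genes from its GENCODE annotation. The base and context matched at all cytosines. Between 200744653 and 845527087 cytosine calls per library gave mean coverages of 38.7 to 87.6 reads. Measures of the same mouse were compared by a two-sided exact sign-flip test over 8 mice (smallest p 0.00781), groups by an exact permutation of 4 against 4 (smallest p 0.0286), with Benjamini-Hochberg adjustment in each family. The rule for mitochondrial cytosines had a fallback for fewer than 20 covered in all mice, which was used. Named were the clusters (gaps up to 100 bases) with most cytosines at 20% or more and the 10 single ones with the highest lowest-mouse level, and sequences were printed for the 12 best read of these. The members, comparisons and lists were chosen with earlier results of these data known. The rules were tested on simulated data. Software was Python 3.11.15, scipy 1.17.1, pysam 0.24.0, numpy 2.4.6 and pandas 2.3.3. Sequence reads and further replicates were not analysed here.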

Additional observations from a re-analysis of the deposited data

Results flagged for a closer look

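The DBA male lay far from the other mice in 3 of 31 sets of 8 values looked at, by Dixon's ratio for 8 values (critical value 0.526), which chance alone passes in about 1 set in 20. These were the contrast between members beside methylated and unmethylated CGs (0.753 points), the difference of promoters from intergenic DNA (-0.322 points), and the CAC of Cdk6 at chr5:3519004 (66.7%, from 14 of 21 reads). The DBA male also had the lowest mean coverage of the members (93.2 reads).

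Outside the comparisons above, CGs of the mitochondrial stretch that lay in MspI sites stood out from other mitochondrial cytosines. The CG at mitochondrial position 6275 averaged 19.5% over 8 mice, that at 6276 averaged 7.79% and that at 6390 averaged 21.5%, whereas no mitochondrial cytosine outside CG exceeded 0.996% in any mouse. These CGs are part of the sites at which the enzyme cuts, and they took no part in the mitochondrial reference level. On the autosomes CGs in such sites were kept as nearest covered CGs, among them the one 49 bases from the CAC of Lims1. The contrasts by CG neighbour were not repeated without them.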

How the results depend on the processing

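The comparisons of contexts, genomes, gene parts, CG neighbours, sexes and generations were repeated with at least 10 or 50 reads, with summed reads, without members at 20% or more in any mouse and without each mouse, and, chosen after seeing the data, without base 4 of the read, without both libraries of 76 bases (not for the sexes) and with summed reads lacking the 1% most covered members. The contrasts of single motifs and of mitochondrial CA with CC were not repeated, and counts of high cytosines and the difference of DBA and B6 parents only under some of these. Some were also run with other CG windows and cut-offs, without CCGG, with reads without a SNP or with other mitochondrial cytosines or level limits. Of 325 values, 306 kept their direction and their side of the threshold, or for counts and levels stayed near the main value, 10 moved further, 2 were no longer past the threshold, 2 came past it and 5 were reversed. Of the 306, 3 could not change, since no member lay in CCGG or over 49 bases from a CG. CHG minus CHH was not past the threshold without members at 20% or more in any mouse (-0.0103 points, exact p = 0.141) and with reads without a SNP (-0.0171 points, exact p = 0.0547), and leaving out each mouse gave -0.0250 to -0.0150 points. Summed reads reversed CAC minus other CA (-0.0987 points), exon minus intergenic (-0.340) and intron minus intergenic (-0.366), and the 13 most covered members of chromosome 2, with 35.9% of methylated reads, enter that sum. Leaving out each mouse, F1 minus parents ran from -0.00577 to 0.190 points, negative without the library labelled B6 male, and the correlation of autosomal with mitochondrial CHH from -0.0980 (without the DXB female) to 0.951 (without the DBA male, exact p = 0.00357). With summed reads this correlation was 0.740 (exact p = 0.0350). Cytosines at 20% or more in all 8 mice numbered 17, but 45 with at least 10 reads, 6 with at least 50, 103 at 10%, 2 at 50%, and 18 to 39 with each mouse left out, 39 without the B6 female. Members at 20% in at least 1 mouse numbered 938, but 5951 with at least 10 reads and 108 with at least 50. The labels carry no replicate numbers, so mice were paired only by strain, where female minus male was 0.149 points ± 0.264 (exact p = 0.25). Depth limits single levels, since at 20 reads 1 read moves a level by 5%, and the mitochondrial reference rests on 1 short stretch.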
